A study of Mus musculus with 60 samples.

Results

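Cells hold their proteins in shape with chaperones, and they raise chaperone transcripts when unfolded protein builds up. The 39 genes described here belong to this machinery in the cytosol, the mitochondria and the endoplasmic reticulum (ER), where secreted and membrane proteins fold. They were taken by name from a list of heat shock and unfolded protein response genes. This list was chosen with earlier results of these data known, so the shares of called genes below are a description. All 39 were found among the 18088 genes of the table, and all 39 passed the filter on low values. There were 12 cytosolic and nuclear chaperones and cochaperones, the regulator Hsf1, 3 mitochondrial chaperones, 14 ER chaperones and folding enzymes, 3 ER stress sensors, 4 genes for transcription factors and targets of the unfolded protein response, and 2 genes of ER-associated degradation.

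RNA was sequenced from the prefrontal cortex of C57BL/6J mice at postnatal day 25. Mice heterozygous for the C456Y allele of Grin2b (Grin2b+/C456Y, called Het) or wild type (WT) had received fluoxetine, lithium or vehicle through maternal milk for 3 weeks, from postnatal day 3 to 24. The 6 groups were Het fluoxetine, Het lithium, Het vehicle, WT fluoxetine, WT lithium and WT vehicle, each with 5 female and 5 male libraries, 60 in all. Grin2b encodes the GluN2B subunit of the NMDA receptor, and the labels give neither the makeup of the vehicle nor the drug doses. Grin2b itself averaged 18491.5 ± 1959 normalised reads in Het vehicle libraries and 17329.8 ± 1494 in WT vehicle libraries (SD, n = 10 each), and a read count does not tell the C456Y allele from the wild-type one. Nothing in the labels says that the libraries of a group came from separate animals or litters, so the p-values measure only the spread between these samples, which may be technical.

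The heat shock response is run by the transcription factor HSF1, which is held inactive by chaperones and binds heat shock elements in the promoters of chaperone genes once those chaperones are occupied. In the ER, the sensors ATF6, IRE1 (gene Ern1) and PERK (gene Eif2ak3) detect unfolded protein: cleaved ATF6 and the XBP1 form that IRE1 splices induce ER chaperones through the ER stress response element, and PERK phosphorylates eIF2α, which favours translation of ATF4 and then of the target CHOP (gene Ddit3). Neurons depend on both arms because they make and export large amounts of receptor and channel protein.

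The elements through which these responses act could be read in the promoters. Promoters listed by RefSeq (GRCm38.p6), 250 bases before to 50 after the start, were searched for 30 of the 39 genes. Of these 30, 5 had more than 1 listed start. The remaining genes, Hspa9 among them, were not searched, whether or not RefSeq lists a promoter for them. The ER stress response element, CCAAT and CCACG held apart by 9 bases, was found on either strand in 7 of the 30 genes (23.3%), against 0.119% of the 32851 promoters of all genes. For this and the motifs below, a gene of the 30 counted if any of its listed promoters matched. The background was counted by promoter, so the shares are not in like units. The 8 copies are shown because they name the ER genes that share 1 regulatory sequence; capitals mark the 2 conserved ends, and each copy is written 5′ to 3′ on the strand that carries it.
Hspa5 (chr2:34772025-34772043): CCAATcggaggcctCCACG
Hsp90b1 (chr10:86705638-86705656): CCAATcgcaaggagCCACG
Hsp90b1 (chr10:86705533-86705551): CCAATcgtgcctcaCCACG
Dnajc3 (chr14:118937827-118937845): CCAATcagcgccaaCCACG
Calr (chr8:84847075-84847093): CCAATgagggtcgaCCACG
Canx (chr11:50325800-50325818): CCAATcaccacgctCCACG
Pdia6 (chr12:17266491-17266509): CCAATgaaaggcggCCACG
Creld2 (chr15:88819520-88819538): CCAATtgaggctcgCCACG

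The 7 genes were Hspa5, Hsp90b1, Dnajc3, Calr, Canx, Pdia6 and Creld2, which encodes a secreted ER stress protein. The first lines below give the 220 bases next to the starts of Hspa5, which encodes the ER chaperone BiP, and of Creld2, with the element in capitals. In Creld2 it lies in the opposite orientation and reads as its reverse complement.
Hspa5 (chr2:34771870-34772089, + strand): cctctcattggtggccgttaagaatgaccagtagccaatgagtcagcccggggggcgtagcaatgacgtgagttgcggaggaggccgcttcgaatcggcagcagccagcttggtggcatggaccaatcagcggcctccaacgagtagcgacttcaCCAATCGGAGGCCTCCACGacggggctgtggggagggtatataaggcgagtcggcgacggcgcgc
Creld2 (chr15:88819426-88819645, + strand): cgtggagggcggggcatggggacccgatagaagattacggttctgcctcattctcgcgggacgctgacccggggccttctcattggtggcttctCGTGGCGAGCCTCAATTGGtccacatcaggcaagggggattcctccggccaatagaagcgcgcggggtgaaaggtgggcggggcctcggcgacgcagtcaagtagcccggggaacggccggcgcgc
Heat shock elements are repeats of GAA and TTC. The inverted pair GAANNTTC was found in 8 of the 30 genes (26.7%: Hspa1a, Hspa1b, Hsph1, Hspb1, Dnaja1, Bag3, Hspd1 and Hspe1), against 7.86% of all promoters. The other arrangement, TTCNNGAA, was found in 5 of the 30 (16.7%) against 8.52%, and it shares letters with the first where the repeats run on. The Hspa1a line shows a single pair, and the Hspe1 line shows the run of alternating repeats that Hspe1 shares with its neighbour Hspd1, which is transcribed the other way.
Hspa1a (chr17:34972157-34972376, - strand): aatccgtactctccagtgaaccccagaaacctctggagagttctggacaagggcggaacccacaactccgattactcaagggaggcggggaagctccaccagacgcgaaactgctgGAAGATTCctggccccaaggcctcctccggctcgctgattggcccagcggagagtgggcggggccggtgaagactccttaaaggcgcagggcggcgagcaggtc
Hspe1 (chr1:55087928-55088147, + strand): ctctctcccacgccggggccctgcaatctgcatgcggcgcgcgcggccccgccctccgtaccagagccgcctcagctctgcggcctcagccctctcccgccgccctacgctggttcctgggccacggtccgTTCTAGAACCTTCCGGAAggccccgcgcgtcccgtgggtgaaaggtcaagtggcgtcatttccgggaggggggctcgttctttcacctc
Over the 250 bases before the start, Hspa1a and Hspa1b had the same base at 247 positions. Further motifs, searched on both strands, were TGACGTGG (0 of 30, against 0.676% of all promoters), TGATGNAA (Trib3 and Herpud1, 6.67%, against 3.97%) and the CCAAT box alone, which is also the first end of the ER stress response element (22 of 30, 73.3%, against 37.4%). A match is only a description of the letters in these windows, and no match says only that the letters are not in them.

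Values are normalised read counts, which are reads divided by 1 size factor per library. Recovered depth was 23901635 to 37769417 reads per library. Fold changes were fitted by limma on log2(value + 1) over all 17810 genes that passed the filter, and a gene was called at an adjusted p under 0.05 within a comparison. Where ranges are said not to overlap, the share of all genes without overlap was not counted. In bulk tissue, fewer cells of a type and less RNA per cell cannot be told apart. Markers of cortical excitatory neurons summed to 117509 to 205589 normalised reads over the libraries, against 2696 to 22956 for striatal neurons. The highest striatal sums were 22956 in WT lithium, 14034 in WT fluoxetine and 6633 in WT vehicle libraries, with medians of 4226, 3588 and 3999. Markers of immature olfactory bulb neurons summed to 3118 to 20897. Dissection may thus have differed between libraries, and its part was not tested. No marker in the table had a mean under 1 over all libraries, and means by group were not checked. Libraries that stood apart bear on several results. In 9 of the 10 Het fluoxetine libraries and in WT vehicle female replicate 2, a set of 16 pseudogenes, picked because they were lower in Het fluoxetine than in WT fluoxetine libraries, was low (mean log2 level 1.78 to 3.15, against 4.6 to 7.14 in the other 50 libraries). In all 10 Het fluoxetine libraries, gene values also fell with the GC content of the transcript (r = -0.468 to -0.154 across genes with a mean of at least 100). The strongest such trends were in WT lithium male replicate 5 (r = -0.756) and WT vehicle female replicate 2 (r = -0.509), and 2 Het lithium, 1 Het vehicle and 2 WT lithium libraries lay within the Het fluoxetine range, at -0.35 to -0.184. The largest residuals of the 60 were those of WT vehicle female replicate 2 and of replicate 5 of WT lithium in each sex.

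The cytosolic chaperones held the highest levels of the 39 genes and some of the lowest. Per kb of the longest transcript, the constitutive HSP70 gene Hspa8 averaged 17650.0 ± 928 normalised reads in WT vehicle libraries (SD, n = 10), the HSP90 gene Hsp90ab1 15090.0 ± 1190.0 and the inducible HSP90 gene Hsp90aa1 8715 ± 832. The stress-inducible HSP70 genes Hspa1a (125 ± 23.9) and Hspa1b (124 ± 23.1), and their cochaperone Bag3 (76.4 ± 12.3), lay near the bottom. Hspa1a and Hspa1b did not differ from each other beyond their spread, and their near-identical transcripts leave the split of reads between them uncertain.

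The ER genes were more even. The calcium-binding lectin chaperone Calr led them with 4668 ± 180.0 normalised reads per kb, followed by the ER HSP90 gene Hsp90b1 (2765 ± 170.0), then by the lectin Canx (2168 ± 129) and by Hspa5 (2052 ± 132), which did not differ from Canx beyond the spread. Creld2 had the lowest mean of the 14 and overlapped Hspa13, the next above it, at 265 ± 32.3. Among the regulators, Atf4 (1592 ± 98.7) and Xbp1 (969 ± 59.1) were abundant as transcripts. Ern1 (49.5 ± 3.58) and the pseudokinase gene Trib3, a target of CHOP (4.48 ± 1.79), were the lowest of all 39. The 3 mitochondrial chaperones, Hspd1 and Hspe1 of the HSP60 chamber and the import HSP70 Hspa9, had 1730.0 ± 105, 1200.0 ± 99.7 and 1719 ± 84.4 per kb.

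**Figure D1:**
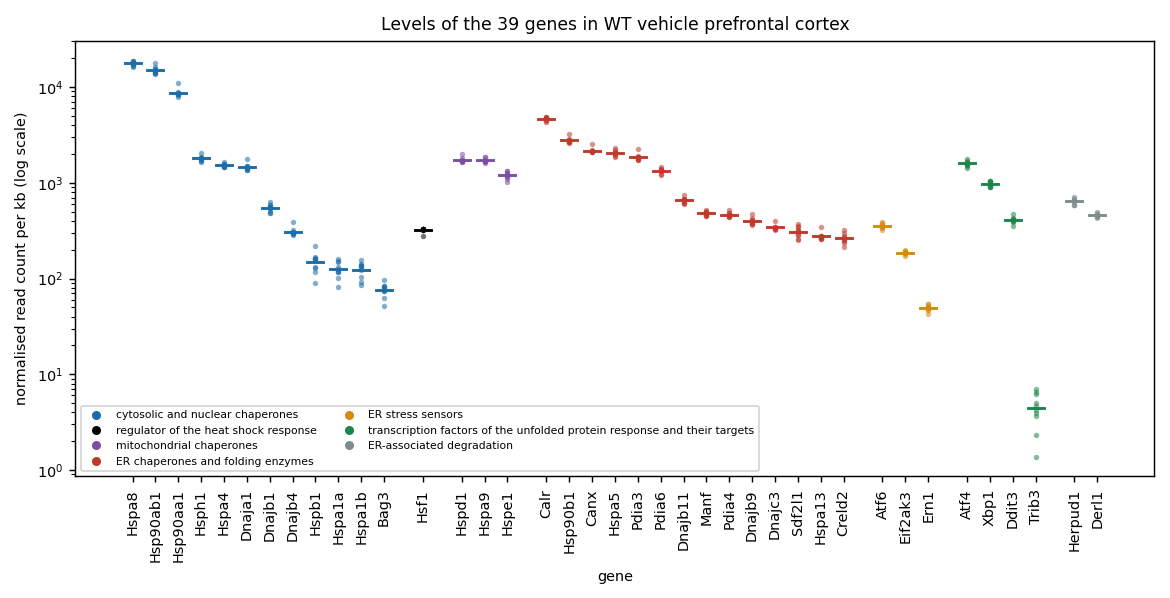
Normalised read count per kb (log axis) of the 39 genes in the 10 WT vehicle libraries, by role; points are libraries and bars are means. Hspa8 leads at a mean of 17650.0 and Trib3 is lowest at 4.48, with the inducible Hspa1a, Hspa1b and Bag3 at the low end of the cytosolic chaperones.

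Without drug, Het and WT cortex differed in 1 of the 39 genes (2.56%), against 0.59% of all 17810 genes tested (0.517% higher and 0.073% lower). That gene was Derl1 (chr15:57869502-57892448), which encodes a channel component through which misfolded ER proteins leave for degradation. Derl1 had a lowest, median and highest value of 1264, 1335 and 1385 normalised reads in Het vehicle libraries, against 1363, 1430.5 and 1564 in WT vehicle libraries. All 10 Het libraries lay below the WT mean. The ranges did not overlap among females and overlapped among males. The log2 fold change was -0.12 ± 0.029 (SE), adjusted p = 0.0366 by limma. The call was lost in 11 of the 20 fits that left out 1 library of these groups: Het vehicle female replicate 3 or 5, Het vehicle male replicate 1, 2 or 3, WT vehicle female replicate 1, 4 or 5, or WT vehicle male replicate 1, 2 or 3. With the groups fitted alone (adjusted p = 0.0961) and after the GC correction (adjusted p = 0.0643) it was also lost, and edgeR gave an adjusted p of 0.0631. The edgeR fit lacked WT vehicle male replicate 3.

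The 12 cytosolic chaperones had a median log2 fold change of -0.026 and the 14 ER chaperones one of 0.014, against -0.0024 over all genes tested. Hspa8 had 50034, 53847 and 58679.9 normalised reads in Het vehicle libraries and 50921, 56322 and 59692 in WT vehicle libraries. Hspa5 had 7165, 7636 and 8703 in Het vehicle libraries and 6791, 7545 and 8382.5 in WT vehicle libraries. The groups overlapped widely for both genes, with log2 fold changes of -0.036 ± 0.046 and 0.054 ± 0.06 (SE). Hspa1a, Hspa1b, Hsp90aa1, Dnajb1, Hsf1, Hsp90b1, Xbp1, Atf4 and Ddit3 had log2 fold changes from -0.062 (Hspa1b) to 0.11 (Ddit3), none past the threshold. The sensor gene Ern1 had the largest change of the 39, 0.21 ± 0.064 (SE), and did not pass (adjusted p = 0.12). It passed only after the GC correction (adjusted p = 0.0403).

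**Figure D2:**
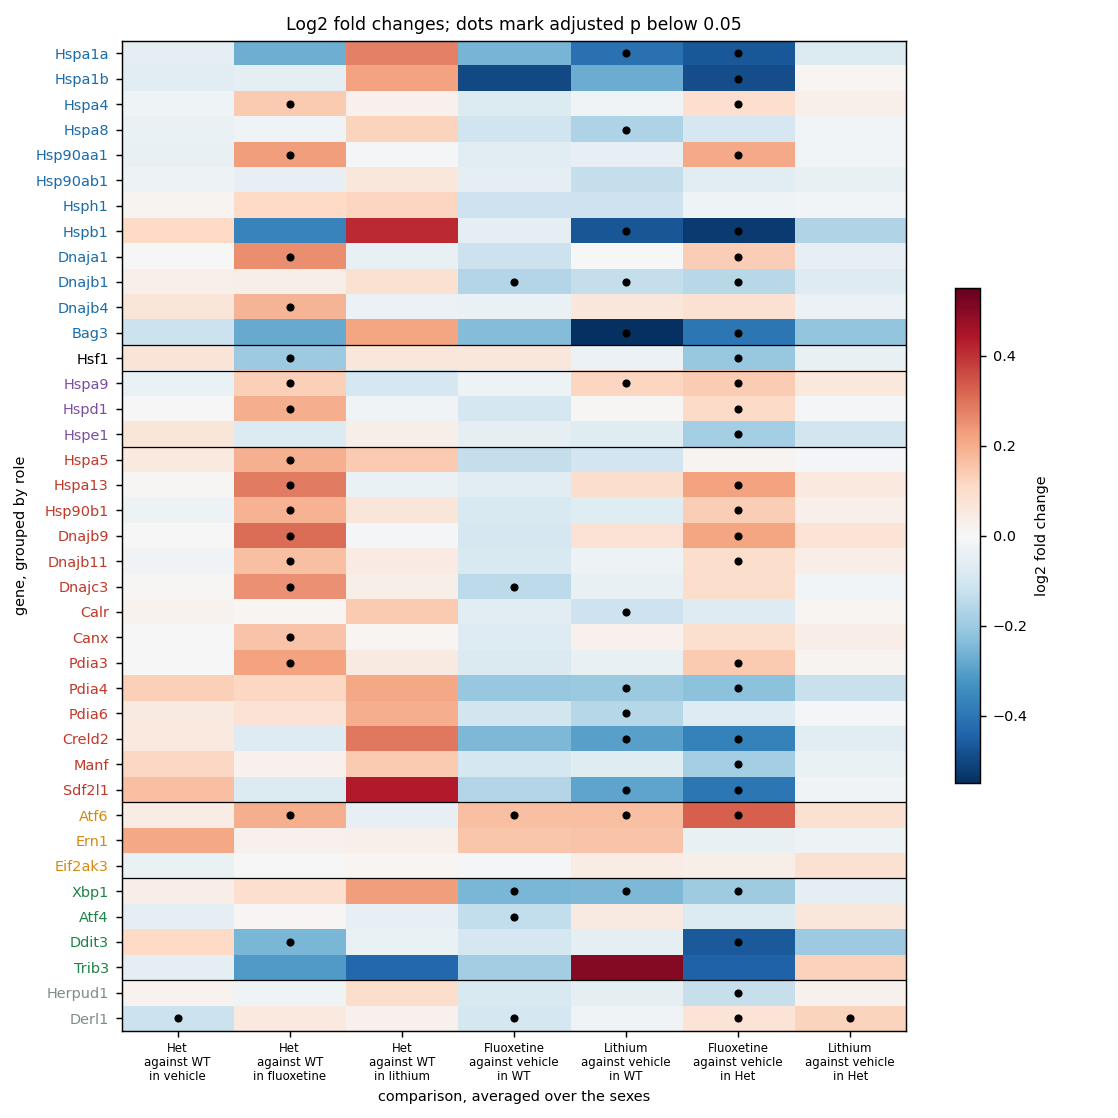
Log2 fold change (colour) of the 39 genes in the 7 comparisons averaged over the sexes, grouped by role, with dots where limma gave an adjusted p under 0.05. The vehicle comparison and the lithium comparisons within Het or across genotypes hold 2 dots in all, both at Derl1, against 6 for fluoxetine in WT, 13 for lithium in WT, 26 for fluoxetine in Het and 17 for Het against WT under fluoxetine.

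In WT cortex, fluoxetine went with lower transcripts of Xbp1 and Atf4, which encode transcription factors of the unfolded protein response, and with higher transcripts of Atf6. Ddit3 and Trib3 had log2 fold changes of -0.10 (adjusted p = 0.463) and -0.19 (adjusted p = 0.703). Of the 39 genes, 5 fell and 1 rose (15.4%), against 8.43% of all genes tested (4.08% lower and 4.35% higher). The 5 were Xbp1, Atf4, Derl1, the HSP40 cochaperone Dnajb1 and the ER cochaperone Dnajc3, which inhibits PERK, and the 1 that rose was Atf6. Beyond the calls, 36 of the 39 fold changes were below 0, while 50% of all genes had a fold change above 0. All 12 cytosolic chaperones (median -0.113) and all 14 ER chaperones (median -0.095) had a negative fold change, and the median over all genes was 0.00014. The 37 further cytosolic and 42 further ER genes of the wider lists given below had medians of -0.059 and -0.012.

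Xbp1 (chr11:5520659-5525893) had a lowest, median and highest value of 1610.5, 1729.6 and 1958 normalised reads in WT fluoxetine libraries, against 1902, 2067 and 2211 in WT vehicle libraries. All 10 fluoxetine libraries lay below the vehicle mean, and the female ranges did not overlap. Xbp1 had a log2 fold change of -0.25 ± 0.058 (SE), adjusted p = 0.00273. The counts are per gene, so the spliced form of Xbp1 was not analysed here. Atf4 (chr15:80255184-80257541) had 2767, 2956 and 3132 in WT fluoxetine libraries, against 2888.5, 3213 and 3593 in WT vehicle libraries, a log2 fold change of -0.14 ± 0.037 (SE), adjusted p = 0.0137. Derl1 averaged 1354.5 ± 50.6 in WT fluoxetine libraries and 1449.6 ± 58.9 in WT vehicle libraries (SD, n = 10 each), with a log2 fold change of -0.10 (adjusted p = 0.0253). All 20 fits that left out 1 library kept Xbp1 and Atf4.

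Dnajb1 (chr8:83608193-83612653), a heat shock gene whose product delivers clients to HSP70, had 1237, 1491 and 1592 normalised reads in WT fluoxetine libraries, against 1442.5, 1649 and 1883 in WT vehicle libraries. The ranges overlapped in each sex, and a log2 fold change of -0.16 ± 0.048 (SE), adjusted p = 0.0255, was lost in 6 of 20 such fits. Dnajc3 averaged 1598 ± 103 in WT fluoxetine libraries and 1765 ± 108 in WT vehicle libraries, with a log2 fold change of -0.14 (adjusted p = 0.0295). The sensor gene Atf6 (chr1:170704674-170867771) went the other way, with 2596, 2862 and 3204.5 in WT fluoxetine libraries against 2305, 2532.5 and 2848 in WT vehicle libraries. The Atf6 rise of 0.16 ± 0.052 (SE; adjusted p = 0.0344) held in 10 of the 20 fits. The largest fold change of the 39 belonged to Hspa1b, -0.49 ± 0.18 (SE), which did not pass (adjusted p = 0.0702), and Hspa1a had -0.25 (adjusted p = 0.247). Without the 3 libraries of largest residual, 11 genes were called, 10 of them lower, and after the GC correction 10 were called, all lower. Leaving out WT fluoxetine male replicate 3 or WT vehicle male replicate 1 gave 3 calls.

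Wider lists of the same machinery are given with the genes of smallest p named and their log2 fold changes in parentheses. With fluoxetine in WT, 4.08% of all genes tested fell and 4.35% rose, and no list was tested against these shares. Of the 37 further cytosolic chaperones and cochaperones, 6 fell and 1 rose. Dnajb5, an HSP40 gene, led those that fell (-0.27, adjusted p = 6.09e-05), with the HSP70 and HSP90 adaptor Stip1 (-0.15, adjusted p = 0.00891) and the HSP90 activator Ahsa2 (-0.21, adjusted p = 0.0213). The riser was Fkbp5, a glucocorticoid-induced HSP90 cochaperone (0.43, adjusted p = 0.000207). Of 42 further genes of ER folding and degradation, 3 fell (Dnajc1, Rpn1 and Derl2) and none rose. Of 28 genes of the integrated stress response, regulators as well as targets, 4 fell and 1 rose, among them the following: the stress-induced factor Atf3 had -0.97 (adjusted p = 0.0165), the cystine transporter gene Slc7a11 -0.32 (adjusted p = 0.00292), the eIF2α phosphatase subunit Ppp1r15b -0.15 (adjusted p = 0.00146) and the mitochondrial folate enzyme gene Mthfd2 0.29 (adjusted p = 0.0154). Of 16 mitochondrial genes, the import gene Timm44 rose (0.20, adjusted p = 0.00122). Activity-induced immediate-early genes moved with this comparison: 5 of 12 fell, with summed levels of 10627 to 17183 in WT fluoxetine libraries against 14738 to 23841 in WT vehicle libraries. Endothelial markers fell in 5 of 10, with sums of 7292 to 11382 in WT fluoxetine libraries against 8648 to 10825 in WT vehicle libraries. None of these markers had a mean under 1 over all libraries. Their part in the chaperone values was not tested.

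**Figure D3:**
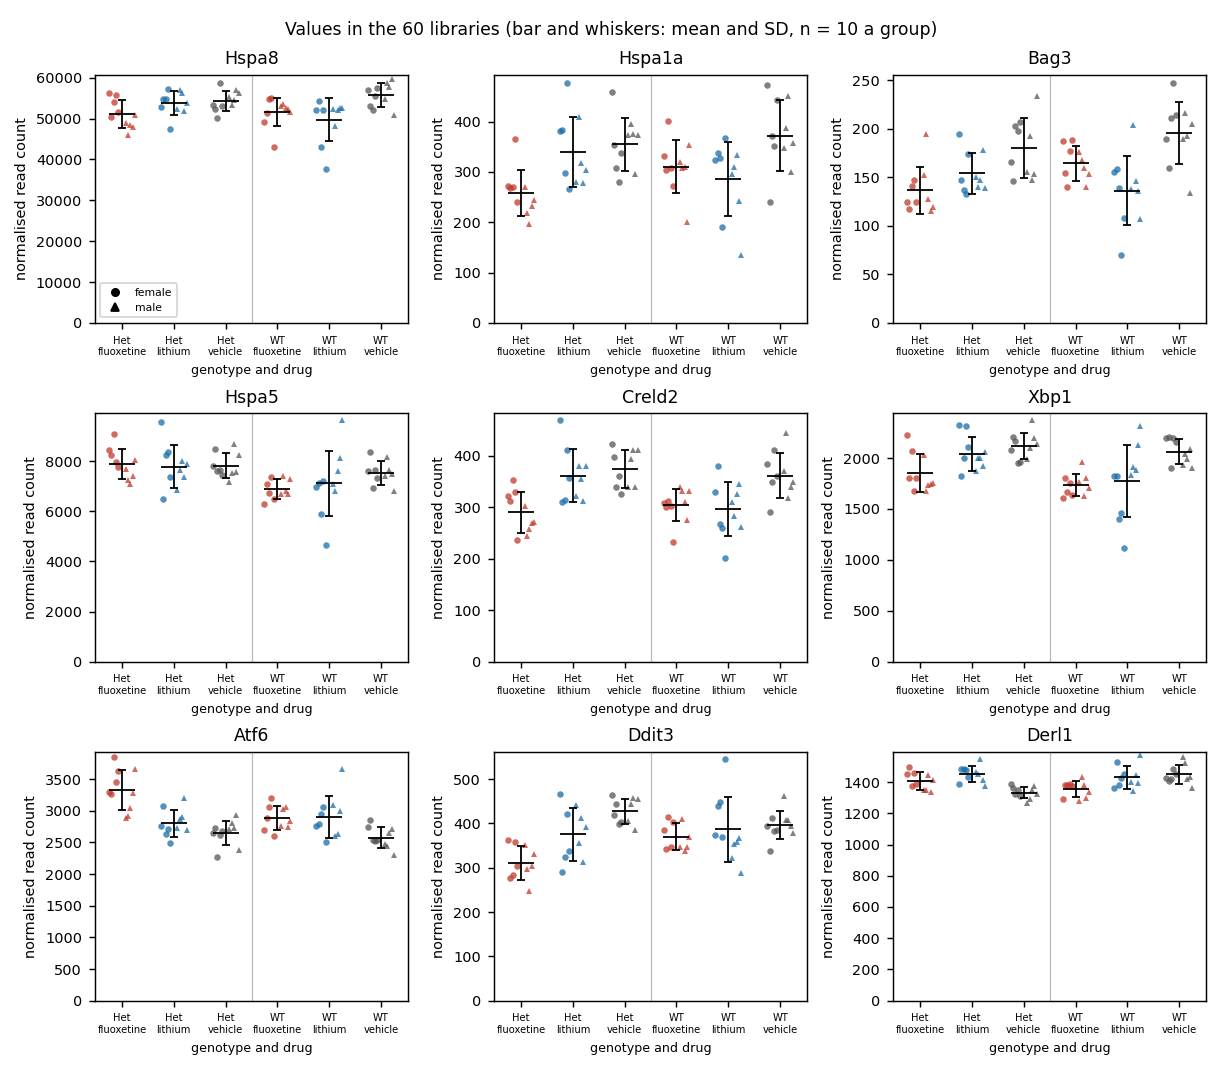
Normalised read count of 9 genes in the 60 libraries by genotype and drug; circles are female and triangles male libraries, bars and whiskers are means and SD (n = 10). Xbp1 has a lower mean in the WT fluoxetine and WT lithium libraries than in the WT vehicle libraries, Atf6 has its highest mean in the Het fluoxetine libraries, and Derl1 has its lowest mean in the Het vehicle libraries.

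In WT cortex, lithium went with lower transcripts of 5 of the 12 cytosolic chaperones and 5 of the 14 ER chaperones. Of the 39 genes, 11 fell and 2 rose (33.3%), against 19.2% of all genes tested (9.87% lower and 9.34% higher). The 12 cytosolic chaperones gave 5 falls (Bag3, Hspa8, Hspa1a, Hspb1 and Dnajb1) and no rise, with a median log2 fold change of -0.132. The 14 ER chaperones gave 5 falls (Creld2, Pdia6, Pdia4, Sdf2l1 and Calr) and no rise, with a median of -0.065, against 0.0039 over all genes. The wider lists of 37 cytosolic and 42 ER genes had medians of -0.065 and -0.023. Xbp1 fell, and the mitochondrial Hspa9 and the sensor gene Atf6 rose.

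Bag3 (chr7:128523616-128546981), which couples HSP70 to autophagy, had a lowest, median and highest value of 69.8, 138 and 204 normalised reads in WT lithium libraries, against 134, 199 and 247 in WT vehicle libraries. Of the 10 lithium libraries, 9 lay below the vehicle mean and the female ranges did not overlap. Bag3 fell by 31.7%, a log2 fold change of -0.55 ± 0.12 (SE), adjusted p = 0.000575. Hspa8 (chr9:40800984-40810087), the most abundant of the chaperones, had 37755, 52121 and 54399 in WT lithium libraries, against 50921, 56322 and 59692 in WT vehicle libraries. All 10 lithium libraries lay below the vehicle mean, with a log2 fold change of -0.17 ± 0.046 (SE), adjusted p = 0.00648.

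Hspa1a (chr17:34969190-34972156) had 135, 316 and 368 normalised reads in WT lithium libraries, against 240.5, 365 and 473 in WT vehicle libraries, a log2 fold change of -0.41 ± 0.13 (SE), adjusted p = 0.0222. Its near-copy Hspa1b had -0.27 and did not pass (adjusted p = 0.288). The small heat shock protein gene Hspb1 averaged 99.1 ± 19.2 in WT lithium libraries and 139 ± 32.6 in WT vehicle libraries (SD, n = 10 each; log2 fold change -0.47, adjusted p = 0.0426), and passed in 9 of 20 fits that left out 1 library. Dnajb1 averaged 1496 ± 88.9 in WT lithium libraries and 1642 ± 140.5 in WT vehicle libraries (log2 fold change -0.13, adjusted p = 0.0468). Hsf1 itself had -0.033 ± 0.038 (SE; adjusted p = 0.587), and Hsp90aa1 had -0.046 ± 0.05 (SE; adjusted p = 0.552).

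On the ER side, Creld2 (chr15:88819646-88826683) had 202, 296 and 381 normalised reads in WT lithium libraries, against 290.3, 355 and 444 in WT vehicle libraries. The ranges overlapped, with 9 of 10 lithium libraries below the vehicle mean and a log2 fold change of -0.30 ± 0.084 (SE), adjusted p = 0.00999. The disulphide isomerase genes Pdia6 and Pdia4 had -0.16 (adjusted p = 0.0329) and -0.21 (adjusted p = 0.0348), the BiP cochaperone gene Sdf2l1 -0.29 (adjusted p = 0.041) and Calr -0.11 (adjusted p = 0.0495). Hspa5 had 4674, 7093 and 9655 in WT lithium libraries, against 6791, 7545 and 8382.5 in WT vehicle libraries, and did not pass (log2 fold change -0.10, adjusted p = 0.223). The WT lithium spread of Hspa5 was the widest of the 6 groups. Of the 7 genes with an ER stress response element in the promoter, 6 had a fold change below 0 and 3 were called (Creld2, Pdia6 and Calr), against 16 of 23 and 7 for the other genes with a promoter sequence. The same split gave 7 of 7 below 0 and 1 called, against 22 of 23 and 3, for fluoxetine in WT. It gave 3 of 7 and 2 called, against 15 of 23 and 17, for fluoxetine in Het, and 4 of 7, against 14 of 23, with none called for lithium in Het. For Het against WT, 2 of 7 were below 0 in vehicle, 1 of 7 in fluoxetine (4 called) and 0 of 7 in lithium, against 11, 9 (8 called) and 7 of 23, with none called in vehicle or lithium. The difference between the 2 sets was not tested.

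Xbp1 had 1118, 1833 and 2311 normalised reads in WT lithium libraries, against 1902, 2067 and 2211 in WT vehicle libraries, a log2 fold change of -0.25 ± 0.058 (SE), adjusted p = 0.00199. Averaged over the sexes, this was close to the -0.25 seen with fluoxetine, and the 2 comparisons share the WT vehicle libraries. By sex, the lithium change was -0.505 in females and 0.011 in males, and the fluoxetine change -0.332 and -0.172. Atf6 averaged 2905 ± 336 in WT lithium libraries and 2576 ± 162 in WT vehicle libraries (SD, n = 10 each), with 0.17 (adjusted p = 0.0179). Hspa9 averaged 5707 ± 558 in WT lithium libraries and 5240.1 ± 257 in WT vehicle libraries, with 0.12 (adjusted p = 0.0175). Atf4 had 0.05 and Ddit3 -0.054, neither past the threshold (adjusted p = 0.359 and 0.652). The largest fold change of the 39 after Bag3 was that of Trib3, 0.51 ± 0.24 (SE; adjusted p = 0.137), a gene of 6.2, 12.7 and 22.8 normalised reads in WT lithium libraries against 2.8, 9 and 14.2 in WT vehicle libraries, so its precision was low.

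The number of lithium calls in WT depended on the fit and on the libraries used. edgeR called 5 genes (Hspa8, Bag3, Creld2, Atf6 and Xbp1) and DESeq2 called 7. Both lacked WT lithium female replicate 3 and WT vehicle male replicate 3. limma gave 8 calls without WT lithium female replicate 3 alone, so these counts do not tell the method from the missing libraries. Without the 3 libraries of largest residual 8 were called, and with the 2 groups fitted alone 4 were called (Hspb1, Bag3, Sdf2l1 and Xbp1). Leaving out 1 library gave 7 or 8 calls for WT lithium female replicate 3 or 5, WT lithium male replicate 2 or 5, WT vehicle female replicate 1, 4 or 5 and WT vehicle male replicate 2. Bag3 and Xbp1 passed in edgeR, in DESeq2, without the 3 libraries and with the groups alone, with log2 fold changes without the 3 libraries of -0.52 and -0.21. Markers of several cell types moved with this comparison: 8 of 10 endothelial, 7 of 8 pericyte and smooth muscle, 6 of 8 meningeal fibroblast, 7 of 8 microglial, 5 of 8 astrocyte and 3 of 6 oligodendrocyte precursor markers fell, as did 6 of 12 immediate-early genes, and none of these rose. The endothelial sums were 6791 to 8999 in WT lithium libraries against 8648 to 10825 in WT vehicle libraries, and the pericyte and smooth muscle sums 4466 to 8632 in WT lithium libraries against 8004 to 9482 in WT vehicle libraries. Microglial sums were 6983 to 10015 in WT lithium libraries against 9718 to 11504 in WT vehicle libraries. None of these markers had a mean under 1 over all libraries, and their part in the chaperone values was not tested.

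With lithium in WT, 9.87% of all genes tested fell and 9.34% rose, and no wider list was tested against these shares. Among the further cytosolic chaperones, 9 of 37 fell and 3 rose. The neuronal HSP40 gene Dnajb2 (-0.28, adjusted p = 1.51e-05), the HSP90 cochaperone gene Fkbp4 (-0.24, adjusted p = 5.61e-05) and the small heat shock protein gene Hspb8, whose product works with BAG3 (-0.36, adjusted p = 7.31e-05), led the falls. Fkbp5 (0.47, adjusted p = 5.95e-05), Dnaja4 and Unc45a rose. In the ER list 7 of 42 fell, led by the disulphide isomerase gene P4hb (-0.12, adjusted p = 0.00972), Cnpy3 and Cnpy2, and 4 rose, led by Txndc11, the site-2 protease gene Mbtps2, whose product cleaves ATF6 (0.20, adjusted p = 0.00286), and the translocation gene Sec63. Of the 28 integrated stress response genes, 6 rose and 4 fell. The risers were led by Mthfd2 (0.34, adjusted p = 0.00258), the asparaginyl-tRNA synthetase gene Nars and the asparagine synthetase gene Asns (0.18, adjusted p = 0.017), and the fallers by the serine synthesis gene Phgdh (-0.35, adjusted p = 0.000575), Slc7a11 and Cth. Of 16 mitochondrial genes, Timm44 and the protease subunit gene Clpx rose.

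The lithium response of WT cortex differed between the sexes for 7 of the 39 genes (17.9%), against 9.64% of all genes tested (4.81% positive and 4.83% negative). For Xbp1, female WT lithium libraries had 1118, 1457 and 1827 normalised reads against 1903, 2197 and 2211 in female WT vehicle libraries. Male WT lithium libraries had 1838, 1909.6 and 2311, against 1902, 1990.0 and 2091 in male WT vehicle libraries. The lithium effect was -0.51 in females and 0.011 in males on the log2 scale, and the low Xbp1 values lay in the female libraries. The difference, female minus male, was -0.52 ± 0.12 (SE; adjusted p = 0.019) by limma.

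Ddit3 differed in the other direction, with 0.17 in females and -0.28 in males, a difference of 0.45 ± 0.15 (SE; adjusted p = 0.0423). Hsp90aa1, Hspa13, Hsp90b1, Pdia3 and Canx had negative differences, from -0.34 to -0.26. The result rested on few libraries. Leaving out WT vehicle female replicate 2, or replicate 5 of WT lithium in either sex, left none of the 39 called, and leaving out WT lithium female replicate 4 or 1 gave 13 or 11. Leaving out WT lithium female replicate 3 gave 3, each of WT vehicle male replicates 2, 3 and 4 gave 2, and each of WT vehicle male replicates 1 and 5 gave 4. Without the 3 libraries of largest residual none was called, and the GC correction, the library term and edgeR each called Xbp1 alone. The edgeR fit lacked WT lithium female replicate 3 and WT vehicle male replicate 3. For the fluoxetine effect in WT, the fluoxetine effect in Het, the lithium effect in Het and the genotype effect in vehicle, limma called no sex difference among the 39 or among all genes tested (0%); 1, 3, 0 and 1 of the 39 had an unadjusted p under 0.05, and neither edgeR nor DESeq2 called any of the 39.

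In Het cortex, lithium went with a change in 1 of the 39 genes (2.56%), against 0.983% of all genes tested (0.483% higher and 0.5% lower), and it was again Derl1, here higher. Derl1 had 1378, 1458 and 1549 normalised reads in Het lithium libraries, against 1264, 1335 and 1385 in Het vehicle libraries. All 10 lithium libraries lay above the vehicle mean, and the ranges did not overlap within either sex. The log2 fold change was 0.12 ± 0.029 (SE), adjusted p = 0.0275, and it passed under each of the 10 other settings and in 17 of 20 fits that left out 1 library. It was lost without Het lithium female replicate 2 or 3 or Het vehicle female replicate 3. Derl1 was also called higher in Het fluoxetine than in Het vehicle libraries (0.077, adjusted p = 0.0316). That call was lost after the GC correction, with the term for libraries low in pseudogenes and in edgeR. Het vehicle is the low group in these 3 calls of Derl1, and they share the Het vehicle libraries.

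None of the genes that fell with lithium in WT was called in Het. Bag3 had 133, 147 and 195 in Het lithium libraries, against 146, 179 and 234 in Het vehicle libraries (-0.22, adjusted p = 0.4). Xbp1 had 1820.5, 1999.9 and 2322 in Het lithium libraries, against 1956, 2118 and 2375 in Het vehicle libraries (-0.054, adjusted p = 0.738). Hspa8 had -0.013 (adjusted p = 0.937) and Creld2 -0.058 (adjusted p = 0.823). Hspa1a, Hspa1b, Hsp90aa1, Dnajb1, Hsf1, Hspa5, Hsp90b1, Atf4 and Ddit3 had log2 fold changes from -0.20 (Ddit3) to 0.061 (Atf4), none past the threshold. The difference of the lithium effect between Het and WT was itself not called for any of the 39 genes by limma, edgeR or DESeq2, against 0.0674% of all genes tested (0.00561% positive and 0.0618% negative). It was 0.33 ± 0.16 (SE) for Bag3 and 0.19 ± 0.082 for Xbp1, Het minus WT, and 6 of the 39 had an unadjusted p under 0.05, 5 of them positive. A difference in the lithium response between the genotypes was thus not detectable for these genes with 10 libraries a group. Of the wider lists, Fkbp5 rose (0.33, adjusted p = 0.0287), and Dnajb2 (-0.22, adjusted p = 0.00502) and Slc7a11 (-0.30, adjusted p = 0.0287) fell.

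Het lithium against WT lithium libraries likewise gave no call among the 39 with limma, edgeR or DESeq2, against 0.0281% of all genes tested (0.0168% higher and 0.0112% lower). An unadjusted p under 0.05 was found for 14 of the 39, 13 of them higher in Het. The 14 ER chaperones had a median log2 fold change of 0.105 and the 12 cytosolic chaperones 0.101, against -0.0024 over all genes. Sdf2l1 had the largest change, with 263, 364 and 561 normalised reads in Het lithium libraries against 225, 274 and 359 in WT lithium libraries (0.44 ± 0.10 SE, adjusted p = 0.119). Hspa1a, Hspa1b, Hspa8, Hsp90aa1, Dnajb1, Hsf1, Hspa5, Hsp90b1, Xbp1, Atf4, Ddit3 and Derl1 had log2 fold changes from -0.044 (Atf4) to 0.28 (Hspa1a). Leaving out WT lithium female replicate 2 gave 5 calls, WT lithium female replicate 1 gave 3 and Het lithium male replicate 4 gave 1.

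Fluoxetine in Het gave the most calls of the 4 comparisons of drug with vehicle, and the Het fluoxetine libraries also stood apart as described above. Of the 39 genes, 12 rose and 14 fell (66.7%), against 39% of all genes tested (19.1% higher and 19.9% lower). Cytosolic chaperones went both ways: Hsp90aa1, Dnaja1 and the HSP70 exchange factor gene Hspa4 rose, while Hspa1a, Hspa1b, Hspb1, Bag3 and Dnajb1 fell. ER chaperones were split too, with Hspa13, Dnajb9, Pdia3, Hsp90b1 and Dnajb11 higher and Creld2, Sdf2l1, Pdia4 and Manf, which encodes a secreted ER stress factor, lower. Hsf1, Hspe1, Ddit3, Xbp1 and Herpud1, a scaffold gene of ER-associated degradation, fell, and Atf6, Hspa9, Hspd1 and Derl1 rose.

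Atf6 had 2892, 3291 and 3847 normalised reads in Het fluoxetine libraries, against 2271, 2694 and 2937 in Het vehicle libraries. All 10 fluoxetine libraries lay above the vehicle mean, with a log2 fold change of 0.33 ± 0.052 (SE), adjusted p = 2.83e-06. Ddit3 (chr10:127290774-127296288), the gene of the pro-apoptotic factor CHOP, had 246.5, 304 and 363 in Het fluoxetine libraries, against 385, 431 and 464 in Het vehicle libraries. The 2 groups did not overlap, and Ddit3 fell by 27.4%, a log2 fold change of -0.46 ± 0.073 (SE), adjusted p = 2.83e-06. How many of all genes tested also lacked overlap between these groups was not counted.

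Hsf1 (chr15:76477422-76501913) had 821, 922 and 955 normalised reads in Het fluoxetine libraries, against 961, 1065 and 1124 in Het vehicle libraries, again without overlap, and a log2 fold change of -0.21 ± 0.038 (SE), adjusted p = 3.11e-05. Creld2 had 237, 287 and 352 in Het fluoxetine libraries, against 326, 377 and 423 in Het vehicle libraries, a log2 fold change of -0.37 ± 0.084 (SE), adjusted p = 0.000457. Hspe1, the lid of the HSP60 chamber, averaged 1061 ± 37.5 in Het fluoxetine libraries and 1211 ± 78.9 in Het vehicle libraries (SD, n = 10 each; -0.19, adjusted p = 0.000284). Its partner gene Hspd1, which overlaps it on the other strand, rose (0.10, adjusted p = 0.0183), and the labels do not say if reads were counted by strand, so both values are uncertain. Hsp90aa1 had 29103, 32536.5 and 34648 in Het fluoxetine libraries, against 25388, 27951 and 29762.5 in Het vehicle libraries, a log2 fold change of 0.21 ± 0.05 (SE), adjusted p = 0.000694.

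Of the heat shock genes that fell, Hspa1a averaged 258 ± 45.7 normalised reads in Het fluoxetine libraries and 355 ± 52.8 in Het vehicle libraries (SD, n = 10 each; -0.47, adjusted p = 0.00385). Hspa1b had -0.49 (adjusted p = 0.024), Hspb1 -0.53 (adjusted p = 0.011) and Bag3 -0.40 (adjusted p = 0.00494). Xbp1 averaged 1852 ± 187 in Het fluoxetine libraries and 2117 ± 130.1 in Het vehicle libraries, with -0.20 (adjusted p = 0.00576). Hspa5 had 7108, 7864 and 9102 in Het fluoxetine libraries, against 7165, 7636 and 8703 in Het vehicle libraries, and its fold change of 0.014 ± 0.06 (SE) did not pass (adjusted p = 0.887). Hspa8 had -0.092 (adjusted p = 0.104) and Atf4 -0.074 (adjusted p = 0.112).

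The direction of change went with base composition. The 12 genes that rose had a transcript GC content of 39.84% to 50.54% (median 45.91%), and the 14 that fell had 45.54% to 61.72% (median 53.2%). Across the 39 genes, fold change and GC content had a Pearson correlation of -0.792, a description over genes measured in the same libraries. After each library was corrected for its trend with GC over all genes, the correlation was -0.465 and 8 genes were called, 7 of the original 26 among them: Hsf1, Hspe1, Dnajb11, Pdia4, Creld2, Atf6 and Ddit3. The share of all genes called after this correction was not set beside the 8. Atf6 then had 0.26 (adjusted p = 0.000415), Ddit3 -0.53 (adjusted p = 1.99e-06) and Hspe1 -0.26 (adjusted p = 6.56e-05), while Hspa13 had 0.045 (adjusted p = 0.393) and Dnajb9 0.052 (adjusted p = 0.418). Hspa1a (-0.28, adjusted p = 0.0522) and Bag3 (-0.26, adjusted p = 0.0755) kept their direction without passing.

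**Figure D4:**
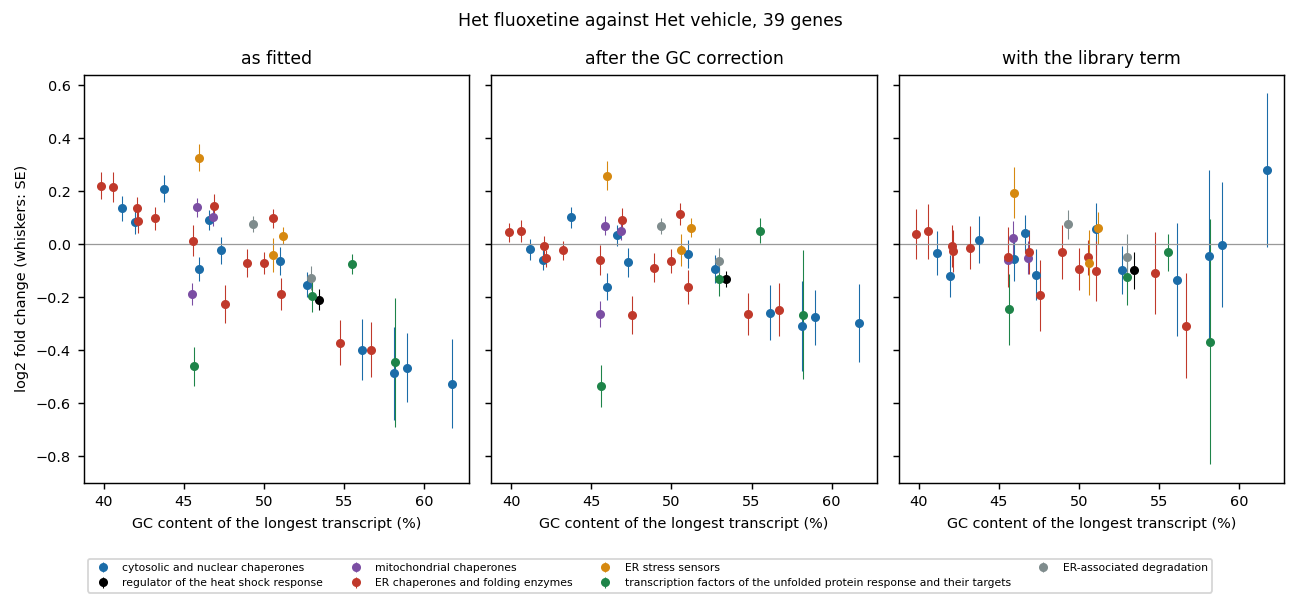
Log2 fold change of the 39 genes in Het fluoxetine against Het vehicle (whiskers: SE) plotted on the GC content of the longest transcript, as fitted, after the GC correction and with a term for the libraries low in pseudogenes. The Pearson correlation in the left panel (r = -0.792) is weaker after the GC correction (r = -0.465), in which Ddit3 and Atf6 remain far from 0. With the term for libraries low in pseudogenes, r is -0.156 and none of the 39 genes is called.

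A term for the 10 libraries low in pseudogenes left none of the 39 genes called. Atf6 then had 0.19 (adjusted p = 0.541) and Ddit3 -0.25 (adjusted p = 0.605). The term takes 9 of the 10 Het fluoxetine libraries, so this library feature and the group cannot be told apart by that fit. Of the 12 immediate-early genes, 10 fell, with sums of 7232 to 14982 in Het fluoxetine libraries against 15680 to 24098 in Het vehicle libraries, and 5 of 10 endothelial markers fell, with sums of 7672 to 9641 in Het fluoxetine libraries against 8430 to 13055 in Het vehicle libraries. Of the excitatory neuron markers 3 of 8 fell (sums 117509 to 163436 in Het fluoxetine libraries against 133267 to 205589 in Het vehicle libraries), as did 2 of 5 red blood cell markers (sums 7278 to 11216 in Het fluoxetine libraries against 7956 to 18753 in Het vehicle libraries). Of 6 interneuron and of 6 oligodendrocyte precursor markers, 2 fell and 1 rose in each list, and each remaining list had at most 1 call. None of these markers had a mean under 1 over all libraries, and their part was not tested.

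Of all genes tested, 19.9% fell and 19.1% rose with fluoxetine in Het, and no wider list was tested against these shares. In the wider lists, 10 of 37 cytosolic genes fell and 7 rose. Dnajb5 fell (-0.47, adjusted p = 6.93e-11), as did Dnajb2 and the HSP70 nucleotide exchange gene Hspbp1, and Fkbp5 rose (0.53, adjusted p = 1.4e-06), as did the chaperonin subunit genes Cct6a and Cct8. Fkbp5 rose in all 4 comparisons of drug with vehicle, which share vehicle libraries within a genotype. Of the ER list, 11 of 42 fell, led by the translocon gene Sec61a1 (-0.15, adjusted p = 3.12e-05), Dnajc1 and the ubiquitin ligase gene Syvn1, and 12 rose, led by the disulphide reductase gene Dnajc10 (0.21, adjusted p = 5.82e-06), Erlec1 and Ssr3. Of the integrated stress response genes, 6 of 28 fell and 4 rose: Atf3 had -1.55 (adjusted p = 1.73e-05), followed by Atf5 and Slc3a2, and the eIF2α gene Eif2s1 had 0.30 (adjusted p = 0.000299), followed by Nars and Vldlr. Of the 16 mitochondrial genes, Phb, Spg7 and Clpp fell and Yme1l1 and Clpx rose.

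Under fluoxetine, Het and WT cortex differed for 17 of the 39 genes, a share near the background. Het fluoxetine libraries were higher than WT fluoxetine libraries for 15 of the 39 genes and lower for 2 (43.6%), against 39.5% of all genes tested (19.6% higher and 19.9% lower). By role, 8 of the 14 ER chaperones were higher in Het and none lower, with a median log2 fold change of 0.159 against -0.012 over all genes. After the GC correction 4 of these 8 were called and with the library term none was, and the wider list of 42 ER genes had a median of -0.001. The 8 were Dnajc3, Hspa13, Dnajb9, Pdia3, Dnajb11, Hsp90b1, Canx and Hspa5. Of the cytosolic chaperones, Dnaja1, Hsp90aa1, Dnajb4, another HSP40 gene, and Hspa4 were higher in Het and none was lower, with a median of 0.008. The mitochondrial Hspd1 and Hspa9 and the sensor gene Atf6 were also higher, and Hsf1 and Ddit3 were lower.

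Dnajc3 had 1789, 1892 and 2024 normalised reads in Het fluoxetine libraries, against 1468, 1558 and 1769 in WT fluoxetine libraries. The 2 groups did not overlap, with a log2 fold change of 0.25 ± 0.044 (SE), adjusted p = 2.82e-05. Dnajb9, which turns BiP against IRE1, had 987, 1164 and 1222 in Het fluoxetine libraries, against 846, 925 and 979.8 in WT fluoxetine libraries, also without overlap, and a log2 fold change of 0.31 ± 0.057 (SE), adjusted p = 5.21e-05. Hspa13, an ER-associated HSP70 homologue, averaged 1376 ± 105 in Het fluoxetine libraries and 1128 ± 56.9 in WT fluoxetine libraries (SD, n = 10 each), had 0.28 (adjusted p = 4.13e-05) and did not overlap either.

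Dnaja1, an HSP40 cochaperone of HSP70, had 8321, 8986 and 10034 normalised reads in Het fluoxetine libraries, against 6744.5, 7598 and 7928 in WT fluoxetine libraries, also without overlap, and a log2 fold change of 0.26 ± 0.046 (SE), adjusted p = 3.43e-05. Neither Hspd1 nor Hsf1 overlapped between the groups. The share of all genes tested without overlap between these groups was not counted, and the Het fluoxetine libraries stood apart as described above. Hspd1 averaged 4498 ± 234 in Het fluoxetine libraries and 3915 ± 87.8 in WT fluoxetine libraries (SD, n = 10 each; 0.20, adjusted p = 3.75e-05). Hsf1 averaged 913 ± 43.1 in Het fluoxetine libraries and 1049 ± 31.8 in WT fluoxetine libraries (-0.20, adjusted p = 6.38e-05). Hspa5 had 7108, 7864 and 9102 in Het fluoxetine libraries, against 6277, 6775 and 7409 in WT fluoxetine libraries, a log2 fold change of 0.20 ± 0.06 (SE), adjusted p = 0.00681. Ddit3 was lower in Het fluoxetine (-0.25, adjusted p = 0.00464), and Xbp1 (0.092, adjusted p = 0.212) and Atf4 (0.0068, adjusted p = 0.908) did not pass.

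Here too the fold changes ran with GC content, with a Pearson correlation of -0.797 across the 39 genes and of -0.084 after the GC correction. The corrected fit called 9 genes, of which 6 were among the original 17: Hspd1, Dnajb9, Dnajb11, Dnajc3 and Pdia3 higher and Ddit3 lower. The other 3 were Xbp1 and Atf4, higher, and Hspe1, lower. Dnajc3 then had 0.12 (adjusted p = 0.0141), Hspd1 0.16 (adjusted p = 0.00138), Pdia3 0.18 (adjusted p = 0.00397) and Hspa5 0.13 (adjusted p = 0.143). With the library term none of the 39 was called, and the limit stated above on that term applies. Of the immediate-early genes 4 of 12 fell, with sums of 7232 to 14982 in Het fluoxetine libraries against 10627 to 17183 in WT fluoxetine libraries, and their part was not tested. Of other marker lists, 3 of 6 oligodendrocyte precursor markers were lower in Het (sums 5917 to 8306 in Het fluoxetine libraries against 6277 to 9593 in WT fluoxetine libraries). Of the excitatory neuron markers 3 of 8 were higher and 1 lower (sums 117509 to 163436 in Het fluoxetine libraries against 135657 to 188856 in WT fluoxetine libraries). Of 6 interneuron markers 2 were lower and 1 higher, 2 of 5 choroid plexus, 2 of 5 red blood cell and 2 of 8 astrocyte markers were lower, and each remaining list had at most 1 marker called in a direction. Their part was not tested either. Between these groups 19.6% of all genes tested were higher in Het and 19.9% lower, and no wider list was tested against these shares. In the wider lists 11 of 37 cytosolic genes rose and 10 fell, led by Cct8, Chordc1 and Ptges3 among risers and Cdc37, Unc45a and Hspbp1 among fallers. In the ER list 14 of 42 rose, led by Ssr3, Edem3 and Dnajc10, and 11 fell, led by the BiP exchange factor gene Sil1 (-0.35, adjusted p = 3.95e-05), Sec61a1 and Atf6b. Integrated stress response genes gave 7 of 28 in each direction, led by Vldlr, Ppp1r15b and Nars among risers and Slc3a2, Cebpb and Slc7a5 among fallers, and mitochondrial genes gave 2 risers (Yme1l1 and Grpel2) and 7 fallers of 16, led by Spg7, Clpp and Phb.

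The fluoxetine effect itself differed between the genotypes for 14 of the 39 genes (35.9%), against 24% of all genes tested (11.9% positive and 12% negative). The difference, Het minus WT, was positive for 12 and negative for Hsf1 and Ddit3. Hsf1 had -0.21 in Het and 0.061 in WT, a difference of -0.27 ± 0.054 (SE; adjusted p = 0.000643). Derl1 had 0.077 in Het and -0.10 in WT, a difference of 0.17 ± 0.041 (SE; adjusted p = 0.00245), with opposite signs in the 2 genotypes. Hspd1, Hsp90aa1, Dnaja1 and Dnajc3 had differences of 0.20, 0.27, 0.25 and 0.24, with adjusted p-values of 0.00409, 0.00451, 0.00455 and 0.00462. Ddit3 had -0.46 in Het and -0.10 in WT, a difference of -0.36 ± 0.10 (SE; adjusted p = 0.00893). The GC correction called 6 genes (Hsf1, Hspd1, Dnajb11, Atf4, Ddit3 and Derl1) and the library term none.

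Xbp1, Dnajb1 and Atf6 were called in both genotypes under fluoxetine and in WT under lithium, in the same direction when averaged over the sexes. Their log2 fold changes were -0.20, -0.25 and -0.25 for Xbp1, -0.15, -0.16 and -0.13 for Dnajb1 and 0.33, 0.16 and 0.17 for Atf6 (fluoxetine in Het, fluoxetine in WT, lithium in WT). The WT comparisons share their vehicle libraries, so these are not independent. For fluoxetine in Het, Xbp1 and Dnajb1 were not called after the GC correction, and none of these genes was called with the library term. For fluoxetine in WT, the Atf6 call was lost after the GC correction and in some fits that left out a library. For lithium in WT, edgeR did not call Dnajb1, and the fit of the groups alone called neither Dnajb1 nor Atf6. The lithium change of Xbp1 in WT was -0.505 in females and 0.011 in males. The share of all genes called in the same comparisons was not counted. Over the 7 comparisons Atf6 and Derl1 were called 4 times each, and 5 genes were never called: Hsp90ab1, Hsph1 (an HSP110 that recycles HSP70), Ern1, Eif2ak3 and Trib3.

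**Figure D5:**
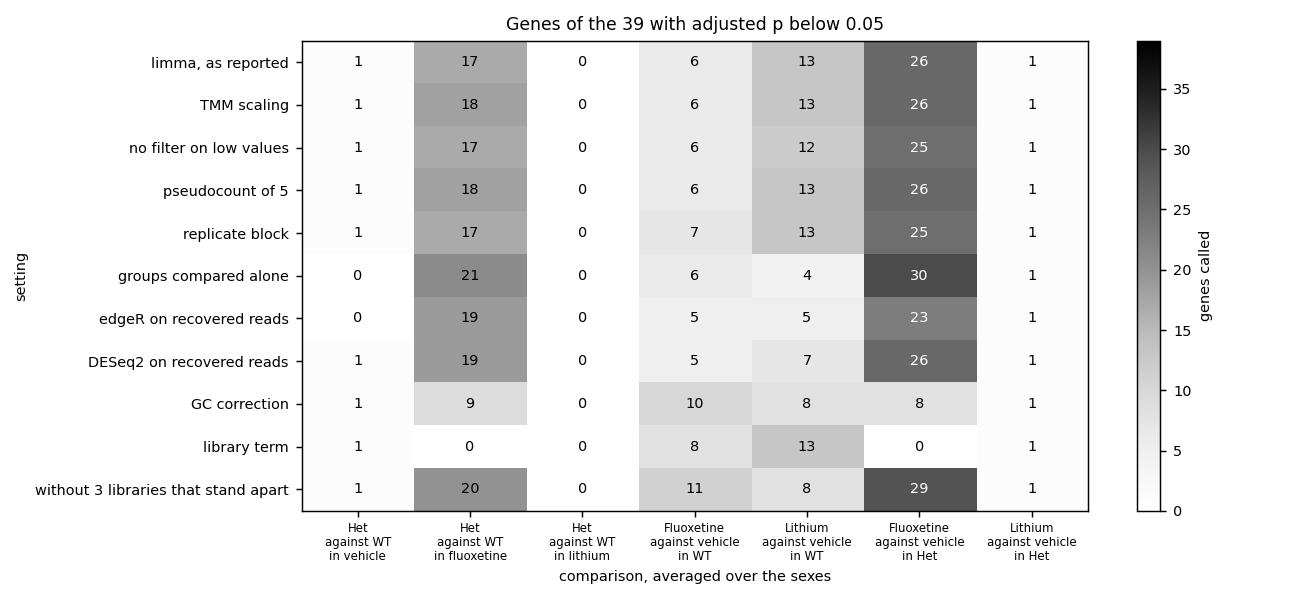
Number of the 39 genes with an adjusted p under 0.05 in each of the 7 comparisons (columns) under the reported fit and 10 other settings (rows). Fluoxetine in Het ranges from 0 to 30 and lithium in WT from 4 to 13, while the call in Het lithium against Het vehicle is 1 in every row.

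Within groups, some genes varied together. After the group means were removed, 6 pairs were correlated over the 60 libraries, with permutation p-values adjusted over the 6 pairs. No r of other gene pairs was set beside them, so the values do not show if these pairs stand out. The part of trends that run through a whole library was not tested beyond the settings given. Hspa5 and Hsp90b1 had r = 0.834 (adjusted p = 6e-05; rho = 0.72, adjusted p = 3e-05), and r = 0.751 without the 2 libraries farthest from the Hspa5 median. Hspa1a and Hspa1b had r = 0.65 (adjusted p = 6e-05; rho = 0.667, adjusted p = 3e-05), and r = 0.677 without the 2 farthest. Hspa5 and the cytosolic Hspa8 had r = 0.561 (adjusted p = 0.00178; rho = 0.5, adjusted p = 0.00108), and r = 0.456 without the 2 farthest.

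The other 2 pairs of cytosolic heat shock genes, both with Dnajb1, had a lower r than the near-identical Hspa1a and Hspa1b. No further heat shock pairs were tested. Hspa8 and Dnajb1 had r = 0.29 (adjusted p = 0.0776; rho = 0.243, adjusted p = 0.132), and Dnajb1 and Hsph1 had r = 0.171 (adjusted p = 0.263; rho = 0.202, adjusted p = 0.174). Without the 2 farthest libraries they had r = 0.266 and 0.088. Xbp1 and Atf4, which stand for separate arms of the ER response, had r = -0.009 (adjusted p = 0.97; rho = 0.205, adjusted p = 0.174), and r = 0.143 without the 2 farthest. After the GC correction the r of Dnajb1 with Hsph1 was 0.492, that of Hspa8 with Dnajb1 was 0.427 and that of Xbp1 with Atf4 was 0.333. These values thus depended on that correction. The SD of the group-centred log2 values was 0.401 for Hspa1b and 0.539 for Trib3, the most variable of the 39.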

How the data were processed

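The deposited table holds normalised signal values per gene for 60 libraries; dividing by the step of each column gave whole reads for 100% of values within 0.001 reads, so the values are read counts divided by 1 size factor per library. Per the submitters' processing notes, Salmon 0.11.2, R 3.6.0, DESeq2 1.19.11 and the GRCm38 build were used, with no role or order; no source says if reads were counted by strand. Gene names, positions and transcript GC content came from GENCODE M21, which named 18077 of 18088 genes. The members and the lists were chosen with earlier results of these data known.

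The filter kept 17810 genes that reached a value of 10 in 5 or more libraries. limma 3.58.1 (R 4.3.3; trend and robust variance) was fitted to log2(value + 1) with 12 group means of 5 libraries and 48 residual degrees of freedom. p-values were adjusted by Benjamini-Hochberg over all genes within each comparison. Fold changes of low genes are understated by the pseudocount. In each of the 7 comparisons averaged over the sexes, called members were named, values by group were given for up to 6 of smallest p, and 12 members were given in any case; of the wider lists, up to 3 genes of smallest p in each direction were named. The fit was tested on simulated data first.

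Alternatives were TMM scaling, no filter, a pseudocount of 5, the compared groups fitted alone, the replicate number as a block, a loess correction for GC content (span 0.3), leaving out the 3 libraries of largest residual, a term for the 10 libraries low in 16 pseudogenes, each library left out in turn, and edgeR 4.0.16 and DESeq2 1.42.0 on the recovered reads of 57 libraries. The other 3 libraries were left out of the count tests, because their step was too close to 1 to recover reads by the check used.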

Additional observations from a re-analysis of the deposited data

Results flagged for a closer look

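In 39 of 468 sets of 5 values (1 gene in 1 group of 1 sex), a library stood apart from the other 4 by Dixon's test at its 95% critical value of 0.71, where chance alone flags about 1 in 20 groups. In WT vehicle female replicate 2, Hsp90aa1 (35968, against 27501 to 28448.5), Dnaja1 (9915, against 7719.5 to 8142), Dnajb4 (1889.8, against 1411 to 1484.5), Hspa9 (5728, against 5063 to 5174), Hspd1 (4854.5, against 4011 to 4173), Hspa13 (1455.5, against 1122 to 1190.3), Dnajc3 (2056, against 1669.9 to 1778), Canx (10785, against 9037 to 9169.8) and Pdia3 (6193, against 4795 to 5165) were higher than in the other 4 libraries, in normalised reads. In WT vehicle female replicate 2, Hsf1 (881, against 1016 to 1033) was lower than in the other 4 libraries, in normalised reads. In WT lithium male replicate 5, Hsp90aa1 (38730.3, against 27662 to 29511), Dnaja1 (11139, against 7736 to 8547), Dnajb4 (2081, against 1514.5 to 1608), Hspd1 (5330.4, against 4010.3 to 4250.4), Hspa13 (1806, against 1203 to 1307), Hsp90b1 (10802, against 8559 to 8842), Dnajc3 (2317, against 1685 to 1806), Canx (13424, against 9363 to 9481.5) and Pdia3 (7041, against 4857 to 5281) were higher than in the other 4 libraries, in normalised reads.

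Other libraries stood apart for 1 or 2 genes each. Values above those of the other 4 libraries were found for Hspa1a in Het fluoxetine female replicate 4 (366, against 240.5 to 273), Hspd1 in WT vehicle male replicate 1 (4370.5, against 4052 to 4114), Hspe1 in WT lithium male replicate 4 (1201, against 1019 to 1068) and Dnajb11 in Het vehicle male replicate 3 (1789.9, against 1529 to 1590.2). Values above those of the other 4 libraries were found for Calr in Het vehicle male replicate 3 (10865, against 9911 to 10158), Pdia4 in WT vehicle male replicate 2 (1234, against 1048 to 1095), Ern1 in WT vehicle female replicate 1 (375, against 339 to 347) and Eif2ak3 in WT fluoxetine male replicate 3 (885, against 826 to 842). Values above those of the other 4 libraries were found for Xbp1 in Het fluoxetine male replicate 1 (2032, against 1678 to 1757). Values below those of the other 4 libraries were found for Hspa1a in Het vehicle male replicate 4 (295.5, against 374 to 396), Hspa1a in WT lithium female replicate 4 (189.7, against 323 to 368), Hspa1b in WT vehicle male replicate 4 (239, against 346 to 389.8) and Hspa8 in WT lithium male replicate 2 (48207, against 52112 to 52716). Values below those of the other 4 libraries were found for Hsp90ab1 in Het fluoxetine female replicate 2 (34220.2, against 36879 to 37853), Dnaja1 in WT fluoxetine female replicate 5 (6744.5, against 7433 to 7703), Dnajb1 in WT lithium female replicate 4 (1335, against 1509 to 1563) and Creld2 in WT fluoxetine female replicate 5 (232, against 301 to 311.5). Values below those of the other 4 libraries were found for Atf6 in Het vehicle female replicate 3 (2271, against 2612 to 2721), Xbp1 in WT vehicle female replicate 3 (1903, against 2159.5 to 2211) and Derl1 in WT fluoxetine female replicate 1 (1294, against 1373 to 1388.5).

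The fluoxetine effect differed between the genotypes, by limma's interaction term with an adjusted p under 0.05, for Hspa4 (0.17), Hsp90aa1 (0.27), Dnaja1 (0.25), Hsf1 (-0.27), Hspa9 (0.17), Hspd1 (0.20), Hspa13 (0.28), Hsp90b1 (0.22), Dnajb9 (0.31), Dnajb11 (0.18), Dnajc3 (0.24), Pdia3 (0.22), Ddit3 (-0.36) and Derl1 (0.17), as differences of log2 fold changes, Het minus WT. The lithium effect in WT differed between the sexes by the same test for Hsp90aa1 (-0.34), Hspa13 (-0.33), Hsp90b1 (-0.27), Canx (-0.26), Pdia3 (-0.28), Xbp1 (-0.52) and Ddit3 (0.45), female minus male, and without WT vehicle female replicate 2, WT lithium male replicate 5 or WT lithium female replicate 5 no sex difference was called among the 39 genes. The part of the libraries that stood apart in the genotype differences was not tested beyond the values already given.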

How the results depend on the processing

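The number of the 39 genes called changed with the setting as follows, and the cause was not tested. For Het against WT in vehicle, 1 gene was called (Derl1), 0 with the groups fitted alone and 0 with edgeR, and after the GC correction the 1 call was Ern1 and not Derl1. For Het against WT under fluoxetine, 17 were called, 9 after the GC correction and 0 with the library term. For fluoxetine in WT, 6 were called, 10 after the GC correction and 11 without the 3 libraries of largest residual. For fluoxetine in Het, 26 were called, 8 after the GC correction and 0 with the library term. For lithium in WT, 13 were called, 4 with the groups fitted alone, 8 after the GC correction, 8 without the 3 libraries, 5 with edgeR and 7 with DESeq2. The genotype difference of the fluoxetine effect had 14 calls, 6 after the GC correction and 0 with the library term. The sex difference of the lithium effect in WT had 7 calls, 0 with the groups fitted alone, 4 with the replicate block, 1 after the GC correction, 0 without the 3 libraries, 1 with the library term and 1 with edgeR. TMM scaling, no filter and a pseudocount of 5 moved no count by more than 1.5 times. The share of all genes called under each setting was not set beside these counts. They do not show if the 39 genes lost calls more than other genes did.

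Called log2 fold changes changed sign in these cases. With the library term, Dnajb4 had -0.016 in Het against WT under fluoxetine, and for fluoxetine in Het Hspb1 had 0.28, Dnaja1 -0.032, Hspd1 -0.050, Hsp90b1 -0.0077, Dnajb11 -0.049 and Pdia3 -0.030. After the GC correction Dnaja1 had -0.020 and Hsp90b1 -0.0058 for fluoxetine in Het. Among the pairs, Dnajb1 with Hsph1 had r = 0.311 without the 3 libraries and 0.492 after the GC correction, Hspa8 with Dnajb1 had 0.427 after the GC correction, Hspa5 with Hsp90b1 had 0.703 and Hspa5 with Hspa8 had 0.451 without the 3 libraries, and Xbp1 with Atf4 had 0.101 without the 3 libraries and 0.333 after the GC correction.

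Leaving out 1 library at a time gave 0 to 1 calls for Het against WT in vehicle, 17 to 20 under fluoxetine and 0 to 5 under lithium, 3 to 7 for fluoxetine in WT, 22 to 26 for fluoxetine in Het, 7 to 15 for lithium in WT, 0 to 1 for lithium in Het and 0 to 13 for the sex difference of lithium in WT. The 3 for fluoxetine in WT came without WT fluoxetine male replicate 3 or WT vehicle male replicate 1. The 7 or 8 for lithium in WT came without WT lithium female replicate 3 or 5, WT lithium male replicate 2 or 5, WT vehicle female replicate 1, 4 or 5, or WT vehicle male replicate 2. The call for lithium in Het was lost without Het lithium female replicate 2 or 3 or Het vehicle female replicate 3. Replicate numbers were shared across groups but did not pair the samples (same-number residual correlations had a median of -0.007 and ran from -0.337 to 0.32), so apart from the sex difference the replicate block is given only as a setting; it called 25 genes for fluoxetine in Het and 7 for fluoxetine in WT. Depth limits Trib3 most, whose values in WT vehicle libraries had a CV of 40%.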
